A study of Mus musculus with 12 samples.

Results

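The hypoxia-inducible factors (Hif) and the enzymes that sense oxygen were examined in sorted intestinal stem cells (ISCs) through 9 genes, taken by symbol from the 47729 genes of the count table. They are the alpha subunits *Hif1a*, *Epas1* (Hif2 alpha) and *Hif3a*, the beta subunit *Arnt*, the prolyl hydroxylases *Egln1*, *Egln2* and *Egln3*, the ubiquitin ligase subunit *Vhl* and the target gene *Vegfa*. The set was selected on measured values, namely the counts of these same libraries in the 4 groups as analysed earlier, so the genes' own changes are given below as a description and without p-values.

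In well oxygenated cells the Egln enzymes hydroxylate prolines of the alpha subunits, *Vhl* recognizes the hydroxylated proteins, and they are degraded. When oxygen is low the alpha subunits persist, pair with *Arnt* and bind DNA, where Hif1 and Hif2 switch on genes for glycolysis, blood vessel growth and, in the intestine, iron uptake. Much of this control acts on the proteins, which RNA-seq does not measure. *Hif3a* has several splice forms, some of which can hold back the other alpha subunits, and it lacks the C-terminal activation domain that Hif1 alpha and Hif2 alpha carry.

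The mice were Lgr5-EGFP-IRES-creERT2 animals of 8 to 10 weeks, and cells of their small intestinal crypts were sorted for bright green fluorescence. All 4 groups carry this allele, in which the *Lgr5* locus, active in ISCs, drives the fluorescent protein. Ctrl mice were left unrestrained without food and water, stress mice were restrained for 3 h on 1 day, vehicle mice were injected with a cyclodextrin solution, and CORT mice were injected intraperitoneally with 5 mg/kg corticosterone, the main glucocorticoid of rodents, in that solution. Each group had 3 libraries, namely Ctrl 1, 2 and 3, stress 1+2, 3 and 4+5+6 (names that read as pools of cells), vehicle 3, 5 and 6, and CORT 2, 4 and 5. The labels call the stress libraries CRS, the study's term for chronic restraint, whereas the design text gives a single exposure. Mice of both sexes were used and the sex behind each library is not given in the sources used here. The labels do not say that the libraries of a group came from separate mice, so p-values measure the spread between these libraries.

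Libraries held between 15934907 and 17135770 estimated counts, except vehicle 6 with 31280267 and CORT 2, 4 and 5 with 29426183 to 69533214, so a low gene was measured best after CORT. The median CPM (counts scaled to a common library size) of 6 ISC markers was 441 to 604 in every library, although *Ascl2*, *Lgr5* and *Smoc2* were called lower after CORT and *Ascl2* after stress. The median of 6 enterocyte markers was 22 to 27.2 CPM in Ctrl, 59.1 to 329 CPM in stress, 18.3 to 39.3 CPM in vehicle libraries and 8.01 to 19 CPM after CORT. *Alpi*, *Fabp1*, *Apoa1* and *Sis* of this list were called higher in stress vs. Ctrl, *Fabp1* in vehicle vs. Ctrl and *Fabp2* in CORT vs. vehicle. The list did not move as one in the last 2 comparisons. Mean CPM of *Alpi*, *Fabp2*, *Apoa1* and *Sis* was lower in vehicle than in Ctrl. That of *Alpi*, *Fabp1*, *Apoa1* and *Sis* was lower in CORT than in vehicle, without a call. The goblet markers *Zg16* (8.88-fold, adjusted p = 0.0108) and *Clca1* (3.01-fold, adjusted p = 0.0392) and the Paneth marker *Mmp7* (1.82-fold, adjusted p = 0.0285) were higher in stress. The goblet markers *Muc2* (1.93-fold), *Fcgbp* (1.88-fold), *Tff3* (1.05-fold) and *Spink4* (0.998-fold) were not called there, nor were the other Paneth markers. *Mmp7* was also higher in vehicle vs. Ctrl (4.11-fold, adjusted p = 0.000183), and *Mmp7*, *Defa24* and *Itln1* of the 6 Paneth markers and *Pou2f3* of the 6 tuft markers were called lower after CORT. The summed level of 6 stromal and endothelial markers reached at most 3.249 CPM and that of 6 blood cell markers at most 1.949 CPM. Of the former, *Cdh5* and *Col3a1* were at 0 in every library. In sorted bulk RNA, fewer cells of a type and less RNA per cell cannot be told apart.

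*Hif3a* had the largest fold of the 9 genes and *Hif1a* the only lower call, and their promoters are shown as the 250 bases before the RefSeq start (GRCm38.p6), read 5′ to 3′ on the gene's strand. Capitals mark the core letters of the element that Hif dimers bind, ACGTG or GCGTG, on either strand. The *Hif3a* window is chr7:17062428-17062677 (minus strand) and that of *Hif1a* chr12:73907617-73907866 (plus strand), a start inside the longer *Hif1a* gene of the files.
Hif3a: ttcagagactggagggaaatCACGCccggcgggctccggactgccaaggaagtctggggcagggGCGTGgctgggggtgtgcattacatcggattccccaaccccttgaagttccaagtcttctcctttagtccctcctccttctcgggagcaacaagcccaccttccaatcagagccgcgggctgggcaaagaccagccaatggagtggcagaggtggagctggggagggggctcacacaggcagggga
Hif1a: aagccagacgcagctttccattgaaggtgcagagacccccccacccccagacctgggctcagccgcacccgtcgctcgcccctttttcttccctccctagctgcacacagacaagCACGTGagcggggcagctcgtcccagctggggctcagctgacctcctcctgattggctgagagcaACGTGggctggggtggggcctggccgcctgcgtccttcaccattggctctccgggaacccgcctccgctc
The *Hif3a* window held 2 matches to GCGTG and 0 to ACGTG. The *Hif1a* window held 3 matches to ACGTG, of which 2 are both strands of the overlapping palindrome CACGTG, and 0 to GCGTG. Of 32851 RefSeq promoter windows of this length, 16.6% held ACGTG and 28.2% held GCGTG on either strand, so such matches are common. The letters TGTTCT, one arm of the palindromic element that the glucocorticoid receptor binds, were in 16.1% of all windows and in none of the 10 windows of the 8 genes with an entry. *Epas1* was not matched.

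The 3 alpha subunits differed in how their RNA stood across the groups. After CORT, *Hif3a* was 7.43-fold and *Epas1* 1.97-fold the vehicle level, and *Hif1a* was 0.737-fold. After restraint, *Hif3a* was 9.05-fold the Ctrl level, while *Epas1* and *Hif1a* overlapped between the groups. Vehicle injection alone had 5.45-fold the *Hif3a* of Ctrl.

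*Hif3a* (chr7:17031507-17062427, minus strand, mm10) encodes the third alpha subunit. Its level was 0.64, 1.31 and 1.33 CPM in Ctrl 1, 2 and 3, from 11, 22 and 22 counts. It was 9.87, 10.8 and 9.06 CPM in stress 1+2, 3 and 4+5+6. The stress libraries lay close together and all above Ctrl.

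In vehicle 3, 5 and 6 *Hif3a* stood at 3.54, 9.89 and 4.57 CPM, and in CORT 2, 4 and 5 at 43.4, 51.6 and 39.6 CPM. Every CORT library lay above every vehicle library, and every vehicle library above Ctrl, with vehicle 5 at the level of the stress libraries. The group means were 1.09 ± 0.393 (Ctrl), 9.93 ± 0.899 (stress), 6.00 ± 3.41 (vehicle) and 44.9 ± 6.14 CPM (CORT) (SD, n = 3).

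The fitted log2 fold change of *Hif3a* was 3.18 (SE 0.341) in stress vs. Ctrl, 2.89 (SE 0.323) in CORT vs. vehicle and 2.45 (SE 0.474) in vehicle vs. Ctrl. A difference was called at an adjusted p below 0.05 (edgeR), which 1.89% of all genes tested passed in stress vs. Ctrl, 8.13% in CORT vs. vehicle and 0.799% in vehicle vs. Ctrl, and *Hif3a* was called higher in each. Nothing is read from that, since these contrasts were known when the genes were chosen. The stress and vehicle comparisons share the Ctrl libraries, and the vehicle libraries are the controls for CORT.

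Few reads stood behind the low end of these folds. One read pair gives up to 4 counts in this table, and 12 counts (3 read pairs) was taken as the lowest level told from 0, so Ctrl 1 lay under it for *Hif3a*. As read pairs, the ratio of stress to Ctrl was 8.9 (95% exact binomial interval 5.11 to 16.8), of CORT to vehicle 7.99 (6.48 to 9.95) and of vehicle to Ctrl 5.17 (2.93 to 9.83). Such intervals cover counting error only. The call in vehicle vs. Ctrl was lost when any 1 of Ctrl 1, Ctrl 2, Ctrl 3, vehicle 5 or vehicle 6 was left out, and the log2 fold change was 1.88 without vehicle 5. In CORT vs. vehicle it was 3.43 without that library.

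The enterocyte markers summed to 727.9 to 2039 CPM in the stress libraries and 511.8 to 594.3 CPM in Ctrl, while *Hif3a* varied in stress from 9.06 to 10.8 CPM. Without stress 3 its log2 fold change was 3.11. In CORT, where *Hif3a* was highest, the enterocyte markers had a median of 8.01 to 19 CPM and a sum of 572.8 to 620 CPM, beside a sum of 434.7 to 489.3 CPM in vehicle. The 6 goblet markers summed to 483 to 1433 CPM in stress against 469.4 to 592.1 CPM in Ctrl. The 6 Paneth markers summed to 150.9 to 235.1 CPM in stress, 117.8 to 151.1 CPM in Ctrl, 166.7 to 196.9 CPM with vehicle and 94.28 to 106.1 CPM with CORT. Summed tuft markers were 11.34 to 14.18 CPM in Ctrl, 5.553 to 10.72 CPM in stress, 7.445 to 8.967 CPM with vehicle and 4.86 to 7.843 CPM with CORT, and 6 enteroendocrine markers 30.71 to 63.59, 25.91 to 52.51, 12.78 to 33.56 and 8.945 to 26.75 CPM in the same order. The part of these cell types in the *Hif3a*, *Epas1* and *Hif1a* levels was not tested.

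*Epas1* (chr17:86753907-86833410, plus strand) encodes the alpha subunit of Hif2, which drives iron uptake genes in the gut epithelium. Its level was 25.9, 27.1 and 27.1 CPM in vehicle 3, 5 and 6 and 49.0, 52.9 and 58.4 CPM in CORT 2, 4 and 5. The vehicle libraries were nearly alike and all CORT libraries lay above them, with a log2 fold change of 0.98 (SE 0.0977), called higher. *Epas1* RNA is also abundant in endothelial cells. The endothelial marker *Pecam1* was called higher in CORT vs. vehicle (log2 fold change 2.13, SE 0.54). *Cdh5*, another marker of these cells, was at 0 in every library. *Tek*, also such a marker, averaged 0 CPM in vehicle and 0.094 CPM in CORT and was too low to be tested. The 6 stromal and endothelial markers summed to 1.564 to 3.249 CPM in CORT and 0.3918 to 0.9453 CPM in vehicle, and the part of such cells in the *Epas1* level was not tested.

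In Ctrl 1, 2 and 3 *Epas1* was at 21.6, 19.6 and 34.1 CPM, and in stress 1+2, 3 and 4+5+6 at 30.8, 24.3 and 38.5 CPM. The groups overlapped, since Ctrl 3 lay above 2 of the 3 stress libraries. The log2 fold change was 0.32 (SE 0.23) and was not called.

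*Hif1a* (chr12:73901375-73947530, plus strand) encodes the alpha subunit of Hif1, the main inducer of glycolytic genes in hypoxia. It stood at 79.2, 82.7 and 80.2 CPM in vehicle 3, 5 and 6 and at 61.5, 57.9 and 61.6 CPM in CORT 2, 4 and 5. The CORT libraries were all lower, by 0.44 on the log2 scale (SE 0.0707; called lower). Its exons share 330 bases with the antisense gene *Gm15283*, which averaged 2.7 counts per library. That gene cannot be told from *Hif1a* if strand was ignored in counting. The *Hif1a* exons also share 148 bases with *Gm49321*, a protein-coding gene on the same strand that has no count of its own.

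Between Ctrl (88.7, 73.0 and 70.3 CPM) and stress (75.3, 71.9 and 74.3 CPM) *Hif1a* overlapped, with Ctrl 1 the highest library of all. The log2 fold change was -0.06 (SE 0.103).

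**Figure D1:**
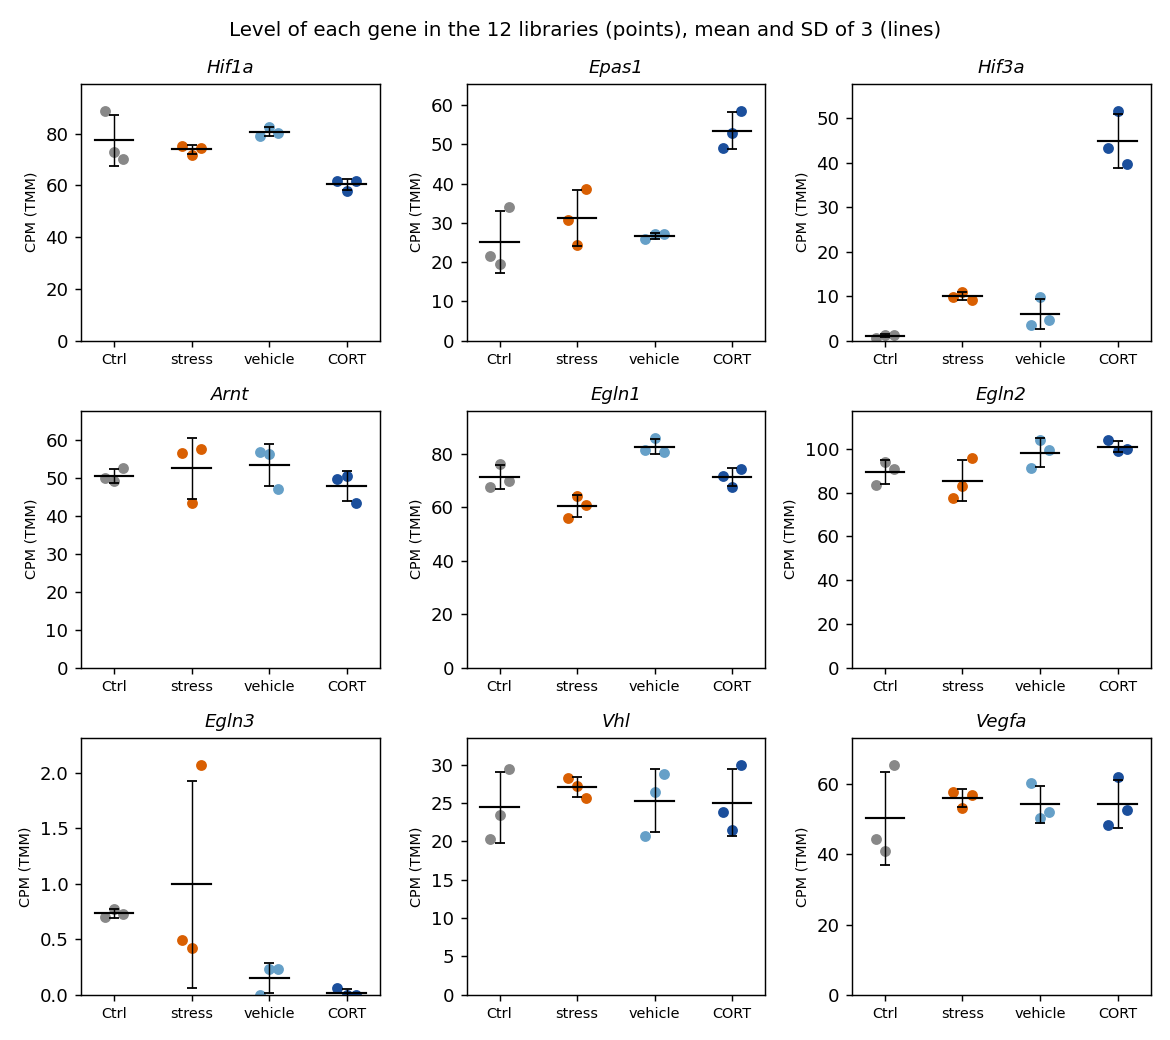
Level of the 9 genes in CPM (y axis, from 0 in each panel) in the Ctrl, stress, vehicle and CORT libraries (points), with the mean and SD of 3 libraries (lines). *Hif3a* stands near 1 CPM in Ctrl and between 39.6 and 51.6 CPM after CORT, the CORT points lie above vehicle for *Epas1* and below it for *Hif1a*, and *Egln3* is near 0 throughout.

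Levels can be compared between genes by FPKM, in which read fragments are scaled to library size and to transcript length. Of the FPKM summed over the 3 alpha subunits, *Hif1a* held 77.2% ± 6.91 in Ctrl, 68.1% ± 3.07 in stress, 74.1% ± 1.39 with vehicle and 41.9% ± 2.42 with CORT (SD, n = 3). *Epas1* held 21.9% ± 6.78, 24.9% ± 4.17, 21.7% ± 0.656 and 32.6% ± 2.11 in the same order. *Hif3a* held 0.836% ± 0.373 in Ctrl, 6.97% ± 1.26 in stress, 4.16% ± 1.93 with vehicle and 25.6% ± 3.32 with CORT. Thus *Hif1a* made up most of the alpha subunit RNA in every library of Ctrl, stress and vehicle, and less than the other two together in each CORT library.

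The summed FPKM of the alpha subunits was 19.5 ± 1.68 in Ctrl, 21.1 ± 1.99 in stress, 21.1 ± 1.29 with vehicle and 26.3 ± 0.391 with CORT. Per *Hif1a* FPKM there were 0.707 to 0.828 *Epas1* FPKM in the CORT libraries and 0.289 to 0.299 in the vehicle libraries. For *Hif3a* this ratio was 0.536 to 0.744 in CORT and 0.0383 to 0.0879 in vehicle.

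**Figure D2:**
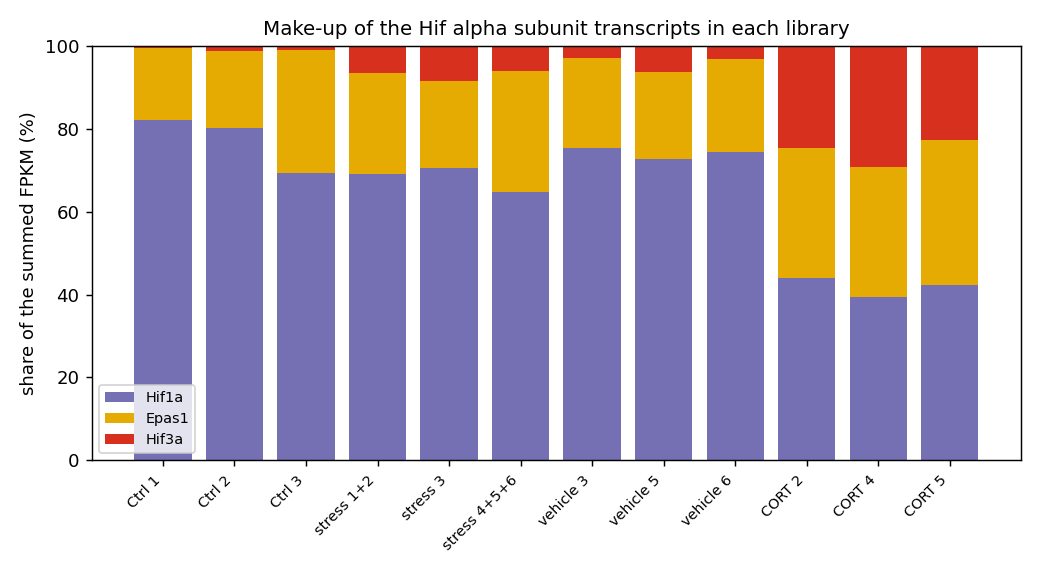
Share (%) of the summed FPKM of *Hif1a*, *Epas1* and *Hif3a* that each gene holds (stacked bars), in each of the 12 libraries. The *Hif1a* part is 64.7% or more in Ctrl, stress and vehicle and 39.3 to 44.1% in CORT, where *Hif3a* takes 22.7 to 29.2%.

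*Arnt* (chr3:95434388-95497240, plus strand), the shared partner of the alpha subunits, overlapped between the groups in each comparison. It was at 49.9, 49.1 and 52.6 CPM in Ctrl, 56.5, 43.4 and 57.7 CPM in stress, 56.8, 56.4 and 47.0 CPM with vehicle and 49.8, 50.5 and 43.3 CPM with CORT, in the order of the library numbers. The log2 fold change was 0.06 (SE 0.122) in stress vs. Ctrl and -0.18 (SE 0.103) in CORT vs. vehicle.

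Of the oxygen sensors, *Egln1* (chr8:124908596-124949254, minus strand), the main hydroxylase of Hif1 alpha in most cells, separated the groups without being called. Its level was 67.6, 76.2 and 70.0 CPM in Ctrl and 56.1, 64.3 and 60.9 CPM in stress. It was 81.5, 85.9 and 80.7 CPM in vehicle and 71.9, 67.6 and 74.3 CPM in CORT. All stress libraries lay below Ctrl and all CORT libraries below vehicle, with log2 fold changes of -0.23 (SE 0.0937) and -0.24 (SE 0.0748). All vehicle libraries also lay above Ctrl (0.21, SE 0.0851), so that CORT and Ctrl stood at nearly the same level. Groups did not overlap, in either direction, for 20.4% of genes tested in stress vs. Ctrl, 28.7% in CORT vs. vehicle and 16.2% in vehicle vs. Ctrl.

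*Egln2* (chr7:27158658-27166802, minus strand), a second hydroxylase, had the highest FPKM of the 9 genes in every group, with means from 37.6 in stress to 44.2 in vehicle. It was at 83.5, 94.0 and 90.8 CPM in Ctrl, 77.7, 83.0 and 95.9 CPM in stress, 91.3, 104.1 and 99.6 CPM with vehicle and 104.0, 99.1 and 100.1 CPM with CORT. The groups overlapped in each comparison. There were 1.98 to 2.73 *Egln2* FPKM per *Egln1* FPKM across the libraries.

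*Egln3* (chr12:54178981-54203860, minus strand), a hydroxylase that is itself a Hif target in many cells, was at the limit of detection. It had 12, 13 and 12 counts in Ctrl, 8, 7 and 36 in stress, 0, 4 and 7 with vehicle and 4, 0 and 0 with CORT. All vehicle and CORT libraries lay below Ctrl, and only Ctrl 2 and stress 4+5+6 were above 12 counts, the latter with 2.06 CPM. No fold is given, and the gene did not pass the filter on low counts in CORT vs. vehicle, which left 8 of the 9 genes there.

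*Vhl* (chr6:113623959-113631633, plus strand), which recognizes hydroxylated alpha subunits, was at 20.4 to 29.4 CPM in Ctrl and 25.7 to 28.3 CPM in stress. It was at 20.7 to 28.7 CPM in vehicle and 21.4 to 29.9 CPM after CORT. The groups overlapped, and the log2 fold change was 0.15 (SE 0.156) in stress vs. Ctrl and -0.04 (SE 0.166) in CORT vs. vehicle.

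*Vegfa* (chr17:46016993-46032377, minus strand), the vascular growth factor that Hif induces in low oxygen, was at 44.4, 41.0 and 65.3 CPM in Ctrl and 57.9, 53.2 and 57.0 CPM in stress. It was 60.3, 50.5 and 52.0 CPM in vehicle and 48.3, 61.9 and 52.7 CPM in CORT. Ctrl 3 was the highest library and the groups overlapped, with log2 fold changes of 0.16 (SE 0.161) and -0.02 (SE 0.112).

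**Figure D3:**
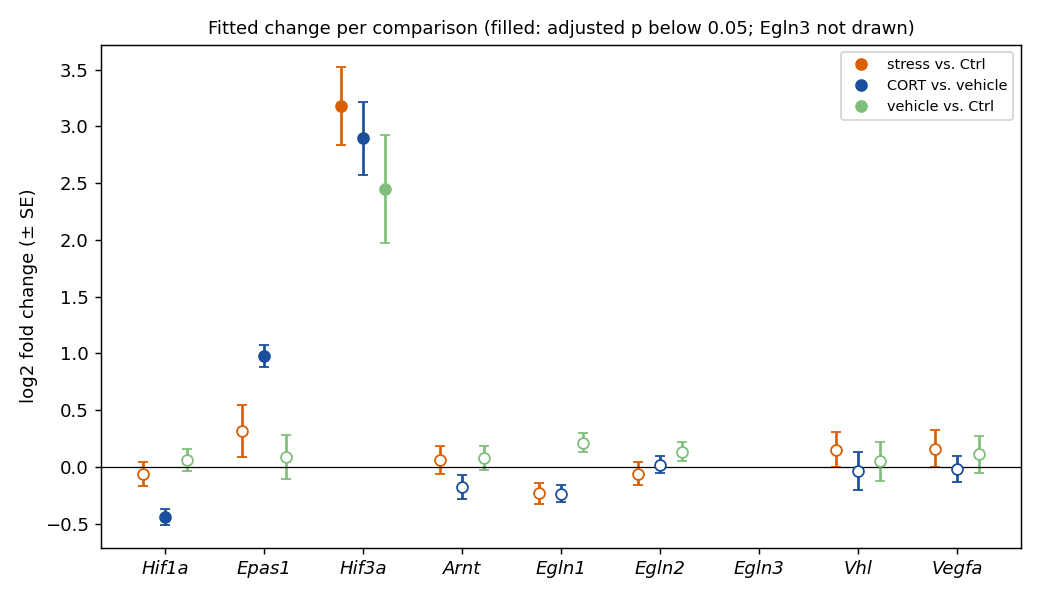
Fitted log2 fold change ± SE (y axis) of 8 genes in stress vs. Ctrl, CORT vs. vehicle and vehicle vs. Ctrl, with filled points where the adjusted p was below 0.05 and *Egln3* left out. *Hif3a* lies between 2.45 and 3.18 in all comparisons, *Epas1* (0.98) and *Hif1a* (-0.44) are filled for CORT, and the other points lie within 0.32 of 0.

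By FPKM, *Egln2* led in each group, followed by *Egln1*, *Vegfa* and *Hif1a* between 14.3 and 21.5 in Ctrl, stress and vehicle. *Egln1* and *Vegfa* did not differ beyond their spread in Ctrl, vehicle and CORT. In stress the same held for *Egln1* and *Hif1a* and for *Hif1a* and *Arnt*. In Ctrl, stress and vehicle *Epas1* stood seventh, with *Hif3a* and *Egln3* below it. In Ctrl, *Vegfa* and *Hif1a* also overlapped. In CORT, *Arnt* (10.1), *Epas1* (8.58), *Vhl* (7.70) and *Hif3a* (6.72) each overlapped with the next, and *Hif1a* with *Arnt*.

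Over the 9 genes, 1 was called in stress vs. Ctrl (1.89% of all genes tested), 3 of 8 in CORT vs. vehicle (8.13%) and 1 of 9 in vehicle vs. Ctrl (0.799%), and nothing is read from these counts. The median log2 fold change was 0.15, -0.03 and 0.09, against medians of -0.00281, 0.0139 and 0.00187 over all genes tested. The response to stress minus the response to CORT, fitted on the 12 libraries, is also given as a description. It was 0.37 (SE 0.122) for *Hif1a*, -0.67 (SE 0.274) for *Epas1* and 0.29 (SE 0.471) for *Hif3a* on the log2 scale. This difference was called for 0 of the 9 genes (0.388% over all genes), and nothing is read from that count.

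The other genes of the pathway, 78 in 5 lists, give the wider setting, with adjusted p-values from edgeR over all genes. The lists were chosen with earlier results of these data known, among them the rise of *Ddit4* and *Angptl4*. Nothing is therefore read from the shares called. In stress vs. Ctrl, 2 of the 61 genes tested rose and 0 fell (3.28% called; 1.89% over all genes), and at an unadjusted p below 0.05 there were 12 higher and 1 lower. DESeq2 called 6 higher and 0 lower, and limma 2 and 0. In CORT vs. vehicle, 4 of 63 rose and 6 fell (15.9% called; 8.13% over all genes), with 9 higher and 9 lower at an unadjusted p below 0.05. There DESeq2 called 6 higher and 7 lower, and limma 4 and 6. For unadjusted p-values, DESeq2 and limma no share over all genes is at hand, so nothing is read from those counts. Median log2 fold changes were -0.02 and 0.03. A difference between the responses to stress and to CORT was called for 0 of 63 genes (edgeR, 0.388% over all genes), with 10 at an unadjusted p below 0.05 and 0 called with DESeq2 size factors.

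The 15 regulators, among them the *Vhl* partners *Cul2*, *Rbx1*, *Elob* and *Eloc*, the asparagine hydroxylase *Hif1an* and the coactivators *Ep300* and *Crebbp*, had 0 calls in stress vs. Ctrl, CORT vs. vehicle and vehicle vs. Ctrl. In each of these comparisons, 1 of 15 had an unadjusted p below 0.05. Over all genes tested, 1.89%, 8.13% and 0.799% were called in that order, and nothing is read from the 0 calls. DESeq2 and limma called *Siah2*, a ligase that acts on the Egln enzymes, lower in CORT vs. vehicle and no other regulator. *Hif1an* was at 71.1 ± 3.95 CPM in vehicle and 78.3 ± 0.0503 CPM in CORT (SD, n = 3), without overlap and without a call.

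Of 20 glycolytic targets, 19 were tested. After CORT, *Hk2*, which phosphorylates glucose, rose from 109.5 ± 4.96 to 186.6 ± 17.6 CPM (log2 fold change 0.75, SE 0.0837, adjusted p = 0.0011). *Pfkp*, *Pfkl* and *Aldoa*, which act in the next steps of glycolysis, fell by 0.48, 0.34 and 0.28 on the log2 scale (adjusted p = 0.0236, 0.0495 and 0.0458), each less than 1.5-fold. These falls were fragile, since leaving out 1 library in turn kept *Pfkp* and *Pfkl* past the threshold in 1 of 6 fits and *Aldoa* in 0 of 6. *Pfkp* also shares 748 exon bases with the oppositely oriented *Pitrm1* (2966.5 counts on average), which makes its values uncertain. *Slc2a1*, the glucose transporter most often read as a Hif1 target, was at 19.9 ± 0.656 CPM in vehicle and 21.6 ± 2.55 CPM in CORT. *Ldha* was at 585.4 ± 71 and 529.0 ± 39.2 CPM and *Pdk1* at 86.0 ± 4.09 and 92.6 ± 4.26 CPM. Neither they nor *Slc2a1* were called. All CORT libraries lay above vehicle for 5 of the 19 genes and below for 4, while 10 overlapped (28.7% of all genes tested did not overlap). Those not called included *Pfkfb3* (log2 fold change 0.66, adjusted p = 0.155) and *Pgk1* (0.24, adjusted p = 0.141), both higher, and *Hk1* (-0.80, adjusted p = 0.102), lower. In stress vs. Ctrl, 0 of 19 glycolytic targets were called (4 at an unadjusted p below 0.05, all higher), and DESeq2 called *Pfkp* and *Pfkfb3* higher. Over all genes tested there, edgeR called 1.89%, so nothing is read from 0 of 19.

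Of 31 other targets, 21 were tested in stress vs. Ctrl and 23 in CORT vs. vehicle. *Ddit4*, an inhibitor of mTORC1, was 154.3 ± 25.2 CPM in Ctrl and rose to 567.1 ± 59.9 CPM with stress (log2 fold change 1.88, SE 0.131, adjusted p = 0.000117). It rose from 162.5 ± 8.2 to 822.6 ± 343 CPM after CORT (2.32, SE 0.265, adjusted p = 0.00117). *Angptl4*, an inhibitor of lipoprotein lipase, rose from 5.58 ± 0.871 to 83.1 ± 11.9 CPM in stress (3.90, SE 0.161, adjusted p = 3.98e-06). After CORT it rose from 18.8 ± 4.87 to 132.7 ± 33.6 CPM (2.79, SE 0.224, adjusted p = 0.000251). Both are also known targets of the glucocorticoid receptor, and their rise was known when the lists were written.

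*Edn1*, the vasoconstrictor endothelin 1, rose after CORT from 2.30 ± 0.48 to 8.58 ± 1.17 CPM (1.88, SE 0.237, adjusted p = 0.00199). In vehicle vs. Ctrl it fell by 1.59 on the log2 scale (SE 0.294, adjusted p = 0.0349) from 6.88 ± 1.09 CPM, and CORT and Ctrl stood at similar levels. That fall was lost without any 1 of Ctrl 1, Ctrl 2, Ctrl 3, vehicle 5 or vehicle 6 (adjusted p up to 0.211). *Angptl4* rose in vehicle vs. Ctrl (1.75, SE 0.229, adjusted p = 0.00661).

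*Car12*, a carbonic anhydrase, and *Plin2*, a lipid droplet coat protein, fell by 0.46 and 0.51 after CORT (adjusted p = 0.0167 and 0.0315). They stayed past the threshold in 4 of 6 and 2 of 6 fits that left out 1 library. *Car9*, a carbonic anhydrase widely used as a hypoxia marker, stood at 86.3 ± 2.55 CPM in Ctrl against 103.8 ± 5.85 in stress, and at 99.3 ± 3.86 CPM in vehicle against 92.8 ± 3.66 after CORT. All stress libraries lay above Ctrl (0.27, SE 0.0839, adjusted p = 0.154). After CORT, *Ndrg1* (0.78, adjusted p = 0.0628), *Tfrc* (0.38, adjusted p = 0.0907) and *Kdm3a* (0.33, adjusted p = 0.053) were higher without a call. Of the 23 other targets tested there, CORT lay wholly above vehicle for 5 and wholly below for 3, and 15 overlapped. Among all genes tested in that comparison, 28.7% did not overlap, and nothing is read from the count.

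Of the 3 iron uptake targets, which follow Hif2 in the duodenum, *Slc11a2*, the iron importer of the brush border, fell by 0.43 after CORT (SE 0.104, adjusted p = 0.0352) and stayed past the threshold in 1 of 6 fits that left out 1 library. *Cybrd1* and *Slc40a1* were not called. Of the 9 Vegf family members and receptors, 3 were tested, with 0 called and 0 at an unadjusted p below 0.05 in stress vs. Ctrl or CORT vs. vehicle, by edgeR, and 0 called by DESeq2 or limma. With 1.89% and 8.13% of all genes called by edgeR in these comparisons, nothing is read from 0 of 3. The main vascular receptors *Flt1*, *Kdr* and *Flt4* were at 0 CPM in all 4 groups and were not tested in stress vs. Ctrl or CORT vs. vehicle.

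**Figure D4:**
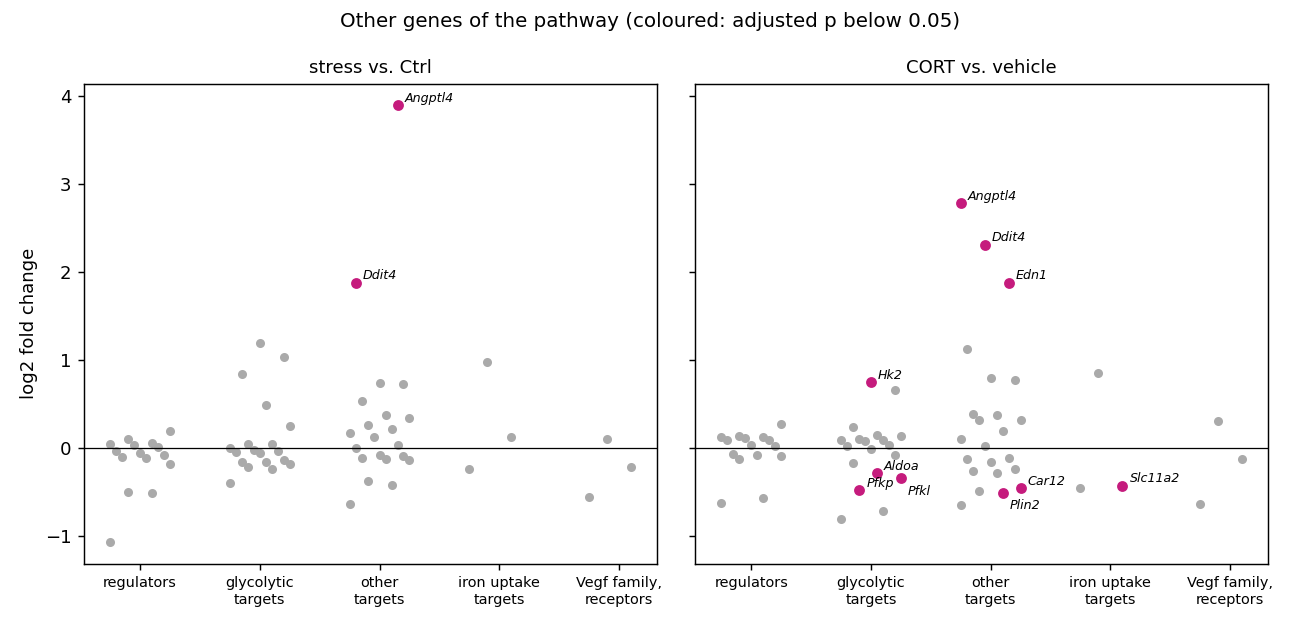
Log2 fold change (y axis) of each tested gene of the 5 pathway lists (x axis) in stress vs. Ctrl and CORT vs. vehicle, coloured and named where the adjusted p was below 0.05. *Angptl4* and *Ddit4* lie highest in both panels, *Hk2* and *Edn1* are added after CORT, and the 6 genes called lower after CORT lie between -0.51 and -0.28.

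Among the 9 genes, *Hif3a* varied most, with group means spanning 5.40 on the log2 scale. The genes whose log2 CPM was most like it over the 12 libraries were *Ahcyl1* (Pearson r = 0.96), *B3gnt3* (r = 0.96) and *Fkbp5* (r = 0.959), given as a description over libraries that share the same 4 groups and depths. *Fkbp5*, a chaperone partner that glucocorticoids induce, stood at 63.6 ± 5.16 CPM in Ctrl against 208.8 ± 36.3 in stress, and at 170.7 ± 29.4 CPM in vehicle against 926.9 ± 46.4 after CORT (SD, n = 3). *Ahcyl1* went from 309.6 ± 4.43 CPM in Ctrl to 478.4 ± 8.73 in CORT and *B3gnt3* from 114.1 ± 5.55 to 305.4 ± 9.02. All 4 genes were lowest in Ctrl and highest in CORT, at very different spans, a likeness that follows in part from how the 3 were chosen.

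**Figure D5:**
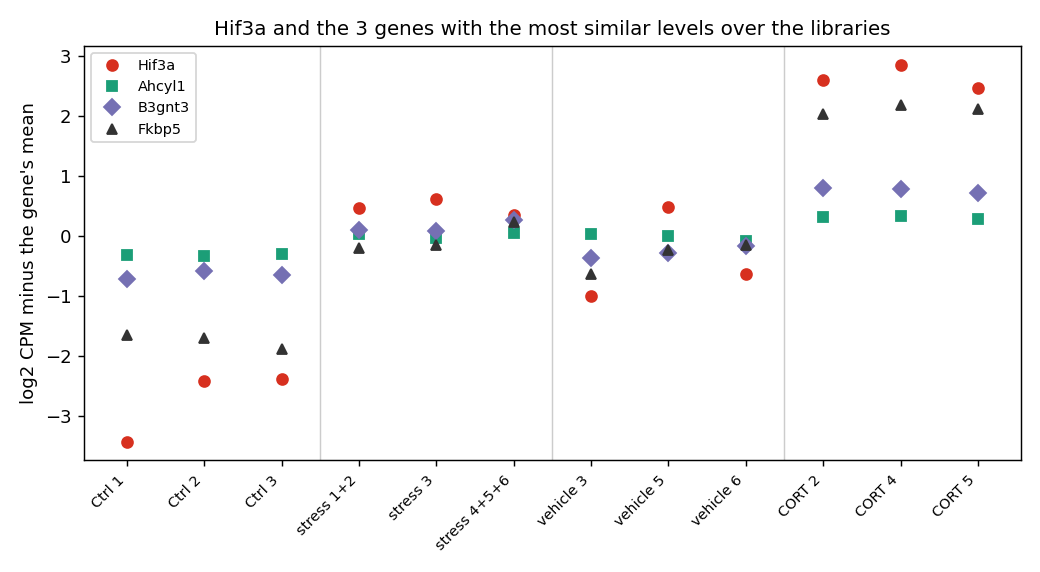
Log2 CPM of *Hif3a*, *Ahcyl1*, *B3gnt3* and *Fkbp5*, each minus its mean over the 12 libraries (y axis), in each library (x axis, groups parted by lines). The group means of each gene rise in the order Ctrl, vehicle, stress and CORT. Single stress and vehicle libraries overlap for *Hif3a*, *Ahcyl1* and *Fkbp5*. *Hif3a* spans the widest range and *Ahcyl1* the narrowest.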

How the data were processed

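RNA of sorted ISCs was measured in 12 libraries. Per the labels, the authors used HISAT2 2.2.1 and StringTie 2.2.1 with mm10, while the methods name another counting program. The authors deposited estimated counts, which are whole numbers of about 75 covered bases each, so that a pair of 150-base reads gives up to 4. The authors also deposited FPKM values and coverage (a signal that is not scaled by depth). FPKM was used for levels between genes and for alternatives, and coverage to learn how many bases a count stands for. No column was left without a sample (0 columns).

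The estimated counts were tested with edgeR 4.0.16 in R 4.3.3 (quasi-likelihood F-test, TMM, filterByExpr, Benjamini-Hochberg adjustment over all genes) on the 6 libraries of each comparison, and a difference was called at an adjusted p below 0.05. The interaction used 12 libraries. SE is the log2 fold change over the square root of F. CPM used TMM factors over 12 libraries. Alternatives were DESeq2 1.42.0, its size factors, other filters on low counts, all libraries in 1 fit, limma 3.58.1 on log2(FPKM + 1) or log2(FPKM + 0.1), with FPKM of at least 0.5 in 3 libraries or no filter, and leaving out each library, and later a replicate block in stress vs. Ctrl. The scripts were tested on simulated data.

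The genes, the pathway and marker lists and the alternatives were chosen with earlier results of these data known. The text names all 9 genes, list genes past the threshold (at most 8 per list and direction), and the 3 genes most like the most variable one. *Siah2*, *Hif1an*, *Slc2a1*, *Ldha*, *Pdk1*, *Car9*, *Pfkfb3*, *Pgk1*, *Hk1*, *Ndrg1*, *Tfrc*, *Kdm3a*, *Pecam1* and the other cell type markers are named outside this rule, after their values were seen. The result of 1 enterocyte marker is not reported here. Of the genes, 47224 matched the reference by identifier. For 136 repeated symbols the most abundant entry was taken. Replicates differed beyond sampling noise in every pair.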

Additional observations from a re-analysis of the deposited data

How the results depend on the processing

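Calls among the 9 genes are given as a description, since they were selected on these counts. Over the 14 alternatives other than the replicate block, the log2 fold changes in CORT vs. vehicle were 2.05 to 3.43 for *Hif3a*, 0.78 to 1.04 for *Epas1* and -0.50 to -0.41 for *Hif1a*, and that of *Hif3a* in stress vs. Ctrl was 1.08 to 3.35. In stress vs. Ctrl, log2(FPKM + 0.1) left 0 of 9 genes called where the main test had 1. In vehicle vs. Ctrl, a count of 1 became 0 with no filter on low counts and in each of the 3 fits to FPKM, and 0 to 1 when 1 library was left out. In the lists, the 2 genes called higher in stress vs. Ctrl became 6 by DESeq2 (adding *Tfrc*, *Pfkp*, *Pfkfb3* and *Kdm3a*) and 2 to 5 when 1 library was left out (5 without stress 3, adding *Tfrc*, *Pfkp* and *Pfkfb3*). The 6 called lower in CORT vs. vehicle became 3 with no filter, 2 with log2(FPKM + 1) and no filter, and 0 to 3 when 1 library was left out (0 without CORT 4). In vehicle vs. Ctrl, the 1 called higher became 0 with log2(FPKM + 0.1) and with log2(FPKM + 1) without a filter, and the 1 called lower became 0 in the 3 fits to FPKM and 0 to 1 when 1 library was left out. In the interaction, 0 list genes became 1 with at least 10 counts in every library (*Car12*) and 0 to 1 when 1 library was left out (*Pfkp* without stress 3, *Car12* without stress 4+5+6). The causes were not tested. Fold changes on log2(FPKM + 1) are smaller for low genes by construction. Depth limits *Hif3a* in Ctrl and *Egln3* everywhere. The label numbers of Ctrl and stress overlap if 1+2 is read as 1 and 2. With these numbers as a replicate block (added after seeing the data, 2 residual degrees of freedom), 76 instead of 260 genes were called, with 1 of the 9 genes, 2 list genes higher and 0 lower as without it. Nothing in the labels says that a number marks a shared mouse or day. For CORT vs. vehicle and vehicle vs. Ctrl no paired analysis was possible because these groups share fewer than 2 replicate numbers.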
